A study of Mus musculus with 2 samples.

Results

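The joining segments of the T cell receptor alpha locus (Traj) were examined in macrophage libraries of dyslipidemic mice with phlegm-dampness retention (PDR) syndrome and with spleen and kidney Yang deficiency (SKYD) syndrome. The members were all genes of the deposited table with the biotype TR_J_gene and a name that starts with Traj, 51 of 54532 genes, ordered along the locus from Traj59 to Traj2. The table holds 1 library for each group. Both groups were ApoE-/- mice of the C57BL/6J background, labelled 6 weeks of age and male by the study's methods. The PDR mice had a high-fat diet for 4 weeks. The SKYD mice had propylthiouracil, a drug that lowers thyroid hormone, by gavage at 10 mg/kg per day for 4 weeks and then the high-fat diet for 2 weeks. The cells came from digested aortas, were sorted on F4/80 and CD11b, and those of 5 mice were pooled for each library. The modelling thus ran over weeks 1 to 4 in PDR and weeks 1 to 6 in SKYD, so age at sampling may have differed. Syndrome, drug, diet time, length of the modelling and pool cannot be told apart, and no difference below has a replicate check or a test.

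A T cell receptor alpha chain is assembled in the thymus, where the RAG recombinase cuts the DNA beside 1 variable segment (Trav) and 1 joining segment and the ends are sealed together. The array of joining segments lies between the delta genes and the constant gene Trac, and each segment is a single short exon that is spliced to Trac in the finished message. Recombination starts at the 5′ end of the array, farthest from Trac, and later rounds on the same allele use segments nearer to Trac. The unrearranged array is also transcribed in thymocytes, from promoters at its 5′ end, and opens the segments to the recombinase. Reads per gene do not tell rearranged from unrearranged transcripts.

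In the GRCm38 assembly, the segments lie on the plus strand of chromosome 14 over 61.8 kb, from 64.3 kb to 2.62 kb ahead of Trac. As genes, all 51 had the same position in the GENCODE M21 annotation, and 0 of them overlapped another annotated gene. The sequences of the 7 segments with the most reads in both libraries together are shown because the read counts turn on them. They were copied from the GENCODE M21 transcripts, and capitals mark the 4 codons of the joining motif, a phenylalanine or tryptophan codon, a glycine codon, any codon and another glycine codon.
Traj33 (chr14:54185358-54185414): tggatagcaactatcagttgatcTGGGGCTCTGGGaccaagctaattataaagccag
Traj59 (chr14:54156133-54156194): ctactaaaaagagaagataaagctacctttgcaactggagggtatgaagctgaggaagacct
Traj19 (chr14:54200386-54200446): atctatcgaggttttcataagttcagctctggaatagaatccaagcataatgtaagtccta
Traj2 (chr14:54217836-54217901): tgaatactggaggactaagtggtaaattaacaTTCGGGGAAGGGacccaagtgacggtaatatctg
Traj17 (chr14:54201775-54201837): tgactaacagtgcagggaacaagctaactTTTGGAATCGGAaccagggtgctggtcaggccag
Traj34 (chr14:54184699-54184756): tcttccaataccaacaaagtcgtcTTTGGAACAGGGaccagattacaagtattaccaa
Traj18 (chr14:54200777-54200842): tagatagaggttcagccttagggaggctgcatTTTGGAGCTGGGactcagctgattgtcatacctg
Traj33 is the segment of the invariant receptor of MAIT cells, and Traj18 is that of invariant NKT cells. Traj59 and Traj19 hold no such motif in the reading frame that Trac continues.

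The motif was searched as the codon TTT, TTC or TGG, then GGN, any codon, and GGN, with the frame counted back from the last base of a segment. It was found in frame in 42 of the 51 segments, with the codon TTT in 33, TTC in 7 and TGG in 2, Traj33 and Traj38. The 9 segments without it were Traj59, Traj46, Traj44, Traj41, Traj29, Traj20, Traj19, Traj7 and Traj3. In Traj46, Traj41, Traj20 and Traj3 this frame holds a stop codon, and the annotated coding phase of these 4 is another one. The gene of Traj59 ends 2 bases after the transcript printed here. Counted back from the end of the printed transcript the frame of Traj59 holds a stop codon, counted back from the end of the gene it holds none, and neither frame holds the motif. Searched on both strands and in any frame, it stood in 44 of the 51 segments, 86.3%, and in 3.17% of the first 60 bases of 141470 transcripts of other genes. The segments were 55 to 66 bases long and had a GC content of 36.1% to 56.5%. No window of 30 bases was shared between a segment and a transcript of another gene.

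Reads were recovered from the deposited FPKM, which come in whole steps of reads. The libraries held 23086889 reads on genes in PDR and 25427863 in SKYD. At a length of 60 bases, 1 read alone is worth an FPKM of 0.710 in PDR and 0.667 in SKYD, so the FPKM of these segments rests on very few reads. Read numbers are therefore given first, and levels are compared between segments only as reads per kb of their length. The reads were 100 bases and paired by the study's methods, longer than any segment, so a read on a segment reaches beyond it. A read across a V-J joint does not match the genome in 1 piece. In the default mode of HTSeq, a read pair that touches 2 genes, such as a joining segment and Trac, is counted for neither, and the mode used is not given in the sources used here. How much of the rearranged message these counts hold was not tested.

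The libraries were checked against their labels. Apoe, the gene deleted in both groups, had 17336 reads in PDR and 3618 in SKYD, and reads per gene do not show whether they lie outside the deleted part, so they check nothing. The 8 macrophage genes had a median log2 difference of 0.58. The F4/80 gene Adgre1 had 6639 and 7551 reads, and the CD11b gene Itgam had 1043 and 1803. The 7 genes of a B cell list summed to 81883 reads in PDR and 16983 in SKYD. Both libraries thus had reads on genes that macrophages are not known for.

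The joining segments had few reads in both libraries and more in SKYD. They took 8 reads in PDR (95% exact Poisson interval 3.45 to 15.8) and 103 in SKYD (84.1 to 125). Scaled to 1000000 reads on genes (RPM), that was 0.347 in PDR and 4.05 in SKYD, 11.7-fold higher in SKYD (95% CI 5.72 to 27.8, from exact Clopper-Pearson limits on how the reads split). Such intervals describe counting error alone and leave out how mice vary. In pooled RNA, more T lineage cells and more of this RNA per cell cannot be told apart.

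Of the 51 segments, 27 had a read in SKYD and 4 had a read in PDR. If the SKYD reads were reduced to the 8 of PDR, 6.5 segments with a read would be expected in SKYD. Segments with more reads in SKYD numbered 26, and 1 segment had more in PDR. The SKYD reads were unevenly spread, with 2.02 reads per segment on average, a median of 1 and a variance 5.69 times the mean. The 3 segments with the most reads, Traj33, Traj59 and Traj19, held 39 of the 103 SKYD reads, which is 37.9%.

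**Figure D1:**
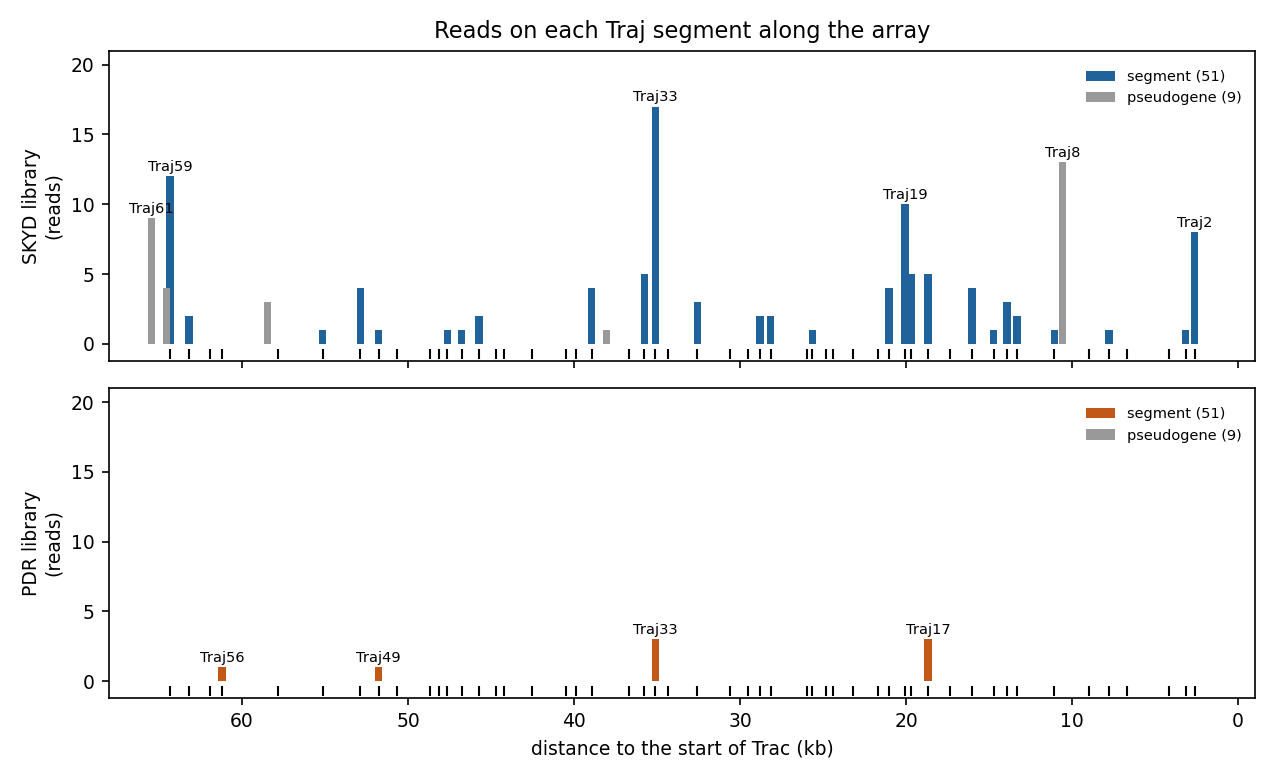
Reads on each Traj segment (bars) against its distance to the start of Trac in kb, with the SKYD library above, the PDR library below, and pseudogenes in grey. Ticks mark the 51 segments, of which 27 have reads in SKYD and 4 in PDR.

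Traj33 (ENSMUSG00000076896) had the most reads. With 3 reads in PDR and 17 in SKYD, its FPKM was 2.24 and 11.9. In RPM this was 5.14-fold higher in SKYD (95% CI 1.49 to 27.4). It was also, with Traj17, the segment with the most PDR reads.

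Traj59 (ENSMUSG00000076874), the first segment of the array, had 0 reads in PDR and 12 in SKYD, an FPKM of 7.50 in SKYD. A count of 0 allows up to 3 reads. With PDR set to 3 reads, Traj59 was 3.63-fold higher in SKYD (lower 95% limit of the ratio 2.52). Traj19 (ENSMUSG00000076910) had 0 reads in PDR and 10 in SKYD, 3.03-fold higher with PDR set in the same way (lower limit 2.04). These were the only segments besides Traj33 with 10 or more reads over both libraries. Traj2 (ENSMUSG00000076926), the last segment before Trac, had 0 reads in PDR and 8 in SKYD, 2.42-fold higher with PDR set in the same way (lower limit 1.55).

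Traj17 (ENSMUSG00000076912) had 3 reads in PDR and 5 in SKYD, a ratio of 1.51 whose interval spans no difference (95% CI 0.294 to 9.74). Traj34 and Traj18 each had 0 reads in PDR and 5 in SKYD, with a lower 95% limit of the ratio of 0.832. Traj50, Traj37, Traj20 and Traj15 each had 0 reads in PDR and 4 in SKYD, with a lower limit of 0.599. No difference was detectable for these 7 segments at this depth.

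The remaining segments with reads had at most 3 in either library. Traj31 and Traj12 had 3 reads in SKYD, Traj58, Traj43, Traj28, Traj27 and Traj11 had 2, and Traj52, Traj45, Traj44, Traj25, Traj13, Traj9, Traj6 and Traj3 had 1, all with 0 in PDR. Traj49 had 1 read in each library. Traj56 was the segment with more reads in PDR, 1 against 0, which is within the 3 reads that a count of 0 allows. No difference was detectable for these 17 segments at this depth.

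No read fell in either library on 23 segments, namely Traj57, Traj53, Traj48, Traj47, Traj46, Traj42, Traj41, Traj40, Traj39, Traj38, Traj35, Traj32, Traj30, Traj29, Traj26, Traj24, Traj23, Traj22, Traj21, Traj16, Traj7, Traj5 and Traj4. The longest run without a SKYD read was that of 5 neighbours, Traj42 to Traj38. A count of 0 allows up to 3 reads, or 1.30e-05% of all PDR reads and 1.18e-05% of all SKYD reads.

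On the scale of log2(FPKM + 1), a gene was counted when its FPKM averaged 1 or more and differed by more than 2-fold. Of all 10399 genes that passed this minimum, 6.91% were higher in SKYD and 7.38% were higher in PDR by this rule. Of the 51 segments, 13 passed the minimum, and 12 of these were more than 2-fold higher in SKYD and 0 in PDR. The exception was Traj17, with a difference of 0.46. The count cannot be read against the 6.91%, because 11 of the 13 had 0 PDR reads and could pass the minimum only through their SKYD level, which fixed their difference above 2-fold. No segment had more than 3 PDR reads, so the 0 higher in PDR cannot be read against the 7.38% either. The median difference of the 13 was 1.91, a value set by the same minimum and so not read against the 0.0035 of all genes tested, and it was 0.46 when a PDR count of 0 was set to 3 reads.

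A rule on reads is less tied to the length of a gene. Among 16703 genes with 10 or more reads in both libraries together, 17.3% were more than 2-fold higher in SKYD and 15.5% in PDR in RPM with 0.5 reads added. Only Traj33, Traj59 and Traj19 reached 10 reads, and these 3 segments were higher in SKYD by this rule. Traj59 and Traj19 had 0 PDR reads and reached 10 through SKYD alone, which fixed their direction, so this count cannot be read against the 17.3% either.

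Along the array, the SKYD reads were spread over both ends and the middle. The first 25 segments, Traj59 to Traj31, took 53 of 103 SKYD reads, 51.5% (95% exact binomial CI 41.4 to 61.4), and 5 of 8 PDR reads, 62.5% (95% CI 24.5 to 91.5). By 17 segments each, Traj59 to Traj40 took 23.3% of the SKYD reads (95% CI 15.5 to 32.7), Traj39 to Traj22 took 33.0% (24.1 to 43.0), and Traj21 to Traj2 took 43.7% (33.9 to 53.8). For PDR these shares were 2, 3 and 3 of 8 reads.

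The segments nearest to Trac therefore held the largest of the 3 shares in SKYD, and 12 of these 17 segments had a read, against 8 of the 17 at the 5′ end and 7 in the middle. A read lay at a median of 32.6 kb from Trac in SKYD and 35.1 kb in PDR, where the median segment is at 30.6 kb. With 8 PDR reads, a difference in position between the libraries was not detectable. A window of 4 neighbours from Traj37 to Traj33, chosen after the values were seen, held 26 of the 103 SKYD reads within 3.90 kb, most of them on Traj33.

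**Figure D2:**
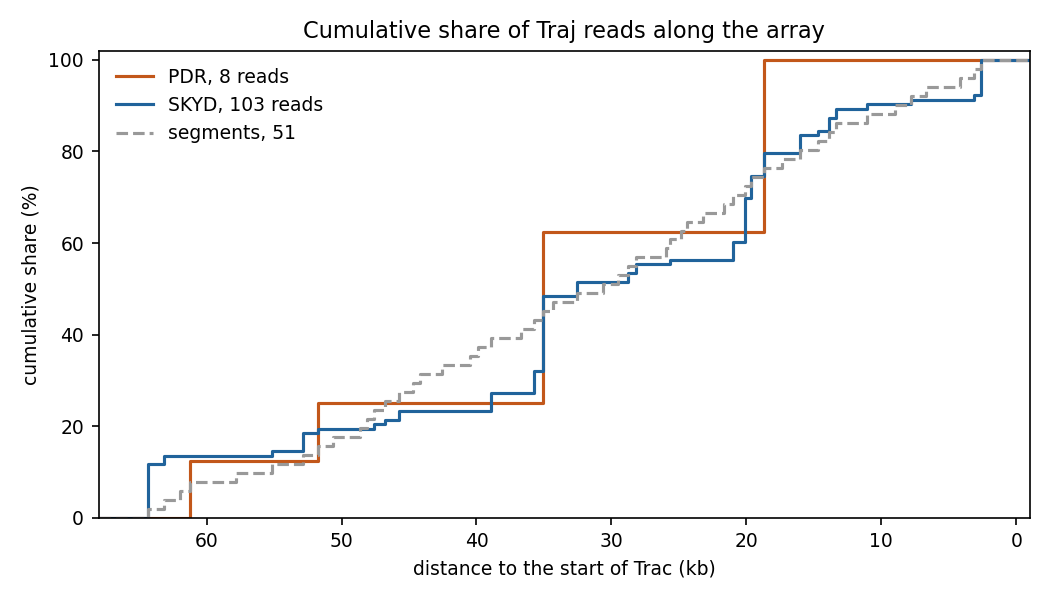
Cumulative share (%) of the 103 SKYD reads, the 8 PDR reads and the 51 segments (dashed) from the 5′ end of the array towards Trac, against distance in kb. The SKYD line rises in steps at Traj59, Traj33, Traj19 and Traj2 and has reached 51.5% after the first 25 segments.

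The reads were set against segment length and base composition. Across the 51 segments, which share 1 library, Spearman's rho of SKYD reads was -0.07 with length, 0.03 with GC content and 0.13 with the order along the array.

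The joining motif was set beside the counts as a property that the choice of members did not use. The 42 segments with the motif in frame had 8 reads in PDR and 75 in SKYD, 29.1 SKYD reads per kb of segment (95% exact Poisson interval 22.9 to 36.5). The 9 segments without it had 0 reads in PDR and 28 in SKYD, 51.2 per kb (34.0 to 74.0). Of these 28 reads, Traj59 held 12, Traj19 held 10 and Traj20 held 4. The other 6 of this class held 2 reads in all, and 4 of the 9 had 0. Without Traj59 and Traj19, a choice made after seeing the values, the 7 that remain had 6 reads, 14.2 per kb (5.22 to 30.9). The order of the classes thus rests on Traj59 and Traj19. The Poisson intervals leave out the uneven spread of reads over segments, so whether the classes differ was not tested.

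The genes around the array were compared next. Trac (ENSMUSG00000076928, chromosome 14 from 54220521 to 54224206), which encodes the constant part of the alpha chain, had 1398 reads in PDR and 4381 in SKYD, 2.85-fold higher in SKYD (95% CI 2.68 to 3.02). Per 100 reads on Trac there were 0.572 reads on the joining segments in PDR and 2.35 in SKYD, a ratio of 4.11 (95% exact conditional CI 2.0 to 9.79). The Traj reads were thus higher in SKYD also relative to Trac, beyond counting error.

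At the other end of the array, the delta constant gene Trdc, which is cut out of the chromosome when the alpha locus recombines, had 12 reads in PDR and 686 in SKYD, 51.9-fold higher (95% CI 29.5 to 101). Per 100 reads on Trdc, the joining segments had 66.7 in PDR and 15.0 in SKYD, a ratio of 0.225 (95% CI 0.0826 to 0.653). Trdv5, a delta variable gene on the minus strand whose end overlaps that of Trdc, had 0 and 8 reads. Dad1, a widely expressed gene downstream of Trac on the minus strand, had 4448 and 8439 reads, 1.72-fold higher in SKYD (95% CI 1.66 to 1.79).

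The variable segments that join to Traj had 360 reads in PDR and 1517 in SKYD over 108 Trav genes, 3.83-fold higher in SKYD (95% CI 3.41 to 4.30). Per 100 Trav reads there were 2.22 Traj reads in PDR and 6.79 in SKYD, a ratio of 3.06 (95% CI 1.47 to 7.33). Trav1, the partner of Traj33 in MAIT cells, had 0 and 12 reads, and Trav11 and Trav11d, the partners of Traj18 in invariant NKT cells, had 0 in both libraries. Zbtb16, a transcription factor of both cell types, had 6 and 139 reads. These 4 genes were looked up after the Traj values were seen.

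Joining segments of the other receptors were treated in the same way. The 13 Trbj segments of the beta chain had 51 reads in PDR and 462 in SKYD, 8.22-fold higher in SKYD (95% CI 6.15 to 11.2), and all 13 had a read in SKYD. Traj and Trbj did not differ beyond counting error, with 15.7 Traj reads per 100 Trbj reads in PDR and 22.3 in SKYD, a ratio of 1.42 (95% CI 0.643 to 3.57). Nor did Traj differ beyond counting error from Trbc, the constant genes of the beta chain. Per 100 Trbc reads there were 0.121 Traj reads in PDR and 0.161 in SKYD, a ratio of 1.33 (95% CI 0.648 to 3.15). In SKYD, Traj had 33.0 reads per kb of segment (95% interval 26.9 to 40.0) and Trbj had 716 (652 to 785). The 4 Trgj segments of the gamma chain had 10 and 93 reads, 8.44-fold higher in SKYD (95% CI 4.39 to 18.2), and the 2 Trdj segments of the delta chain had 0 and 8.

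The immunoglobulin joining segments, summed by chain, were lower in SKYD. Ighj had 65 reads in PDR and 14 in SKYD, a ratio of 0.196 (95% CI 0.101 to 0.352). The ratio was 0.248 for Iglj (95% CI 0.210 to 0.292) and 0.825 for Igkj (95% CI 0.711 to 0.956), of which Igkj1 alone went the other way with 201 and 317 reads.

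**Figure D3:**
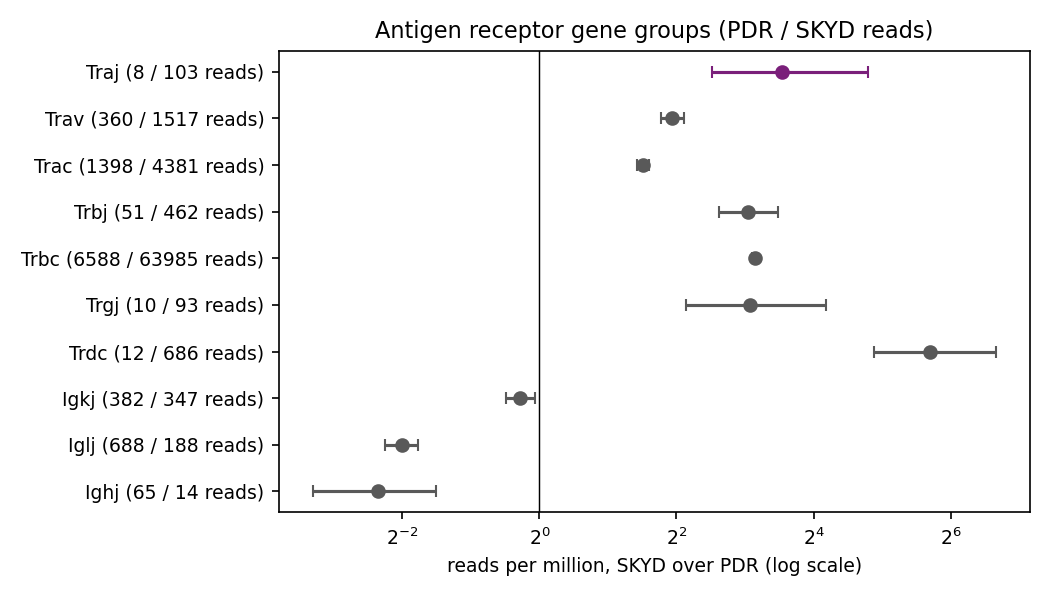
Ratio of RPM, SKYD over PDR, on a log scale with 95% exact intervals (counting error only) for groups of antigen receptor genes, with the reads of PDR and SKYD in brackets. Traj is at 11.7, to the right of Trac at 2.85 and Trav at 3.83, and the immunoglobulin segments lie below 1. The ratio was 8.22 for Trbj, 8.44 for Trgj and 51.9 for Trdc.

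Genes of the steps that make and read an alpha chain were counted in lists, by the same 2-fold rule on FPKM, which 6.91% of all genes tested passed as higher in SKYD and 7.38% as higher in PDR. A gene under an FPKM of 1 in PDR passes the minimum only through SKYD, which favours a call in SKYD, so the number of such genes is given with each list and the counts are descriptions. Of the 6 genes for cutting and processing DNA, 3 were higher in SKYD and 0 in PDR, with a median difference of 1.34, and all 3 were under an FPKM of 1 in PDR. Rag1 and Rag2, the subunits of the recombinase, had 0 reads in PDR and 637 and 2262 in SKYD. With PDR set to 3 reads, they were 193-fold and 685-fold higher in SKYD (lower 95% limits of the ratio 156 and 556). Dntt, which adds bases at the joints, had 39 and 10953 reads, 255-fold higher (95% CI 186 to 359). Hmgb1 and Hmgb2, cofactors of the recombinase that many cells express, differed by 0.41 and 0.33. Of 7 tested genes for joining DNA ends, 1 was higher in SKYD, Xrcc6, with 897 and 6399 reads, and the median was -0.01. Xrcc6 was not under an FPKM of 1 in PDR. In RPM, members of this list moved both ways. Lig4, the ligase that seals the ends, had 4 and 137 reads, 31.1-fold higher in SKYD (95% CI 11.9 to 116). Xrcc5, the partner of Xrcc6 in the Ku complex, had 614 and 317 reads, a ratio of 0.469 (95% CI 0.408 to 0.538), and Prkdc, the kinase that Ku recruits, had 197 and 67, a ratio of 0.309 (95% CI 0.230 to 0.409). Lig4 and Prkdc were under the FPKM minimum.

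Of 11 genes for the CD3 chains and the signal of the receptor, 8 were higher in SKYD and 0 in PDR, with a median of 1.89, and 2 of the 8, Ptcra and Themis, were under an FPKM of 1 in PDR. Cd3g had 2526 and 15290 reads and Cd3d had 1803 and 10010. Ptcra, the partner of the beta chain before an alpha chain is made, had 0 reads in PDR and 475 in SKYD. With PDR set to 3 reads, Ptcra was 144-fold higher in SKYD (lower 95% limit 116). Of 15 transcription factors of the T lineage, 5 were higher in SKYD and 0 in PDR, with a median of 0.74, and 4 of the 5 were under an FPKM of 1 in PDR. Tcf7, a factor of early T cell development, had 475 reads in PDR and 6501 in SKYD, and Satb1, an organizer of chromatin in thymocytes, had 328 and 5353. Tcf3 of the same list was lower in SKYD, with 980 and 798 reads, a ratio in RPM of 0.739 (95% CI 0.673 to 0.813). On the log2(FPKM + 1) scale, none of 6 tested genes for the folding of chromatin loci passed 2-fold, with a median of 0.44 and with Ctcf, a factor that anchors loops, at 0.60. In RPM, genes of this list moved both ways. Nipbl, the loader of cohesin, had 201 and 537 reads, a ratio of 2.43 (95% CI 2.06 to 2.87). Rad21 had 414 and 390 reads, a ratio of 0.855 (95% CI 0.743 to 0.985).

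Of 12 genes of thymocytes, a list that also holds Rag1, Rag2 and Dntt, 9 were higher in SKYD and 0 in PDR, with a median of 2.34. Of the 9, Rag1, Rag2, Dntt, Ccr9 and Arpp21 were under an FPKM of 1 in PDR. Cd8b1 had 1383 and 19828 reads and Cd8a had 667 and 9354, while Ccr7, a gene of mature T cells, had 2632 and 1486, and Cd1d1, which presents lipids, had 1200 and 685. Effector T and NK cells were read from 9 tested genes, at a median of -1.48. By the 2-fold rule, 7 of the 9 were lower in SKYD and 0 higher, and 2 of the 7 were under an FPKM of 1 in SKYD. The tested genes of this list within 2-fold moved both ways. Klrd1 was higher in SKYD, with 631 and 1117 reads and a difference of 0.71, and Klrb1c was lower, at -0.38. All 11 genes of that list summed to 16431 reads in PDR and 6111 in SKYD. B cell genes were lower in SKYD for 4 of 4 tested, at a median of -2.49, and 0 of the 4 were under an FPKM of 1 in SKYD. The summed reads of the thymocyte list were 8104 in PDR and 55443 in SKYD. The part of each cell type in the Traj counts was not tested.

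**Figure D4:**
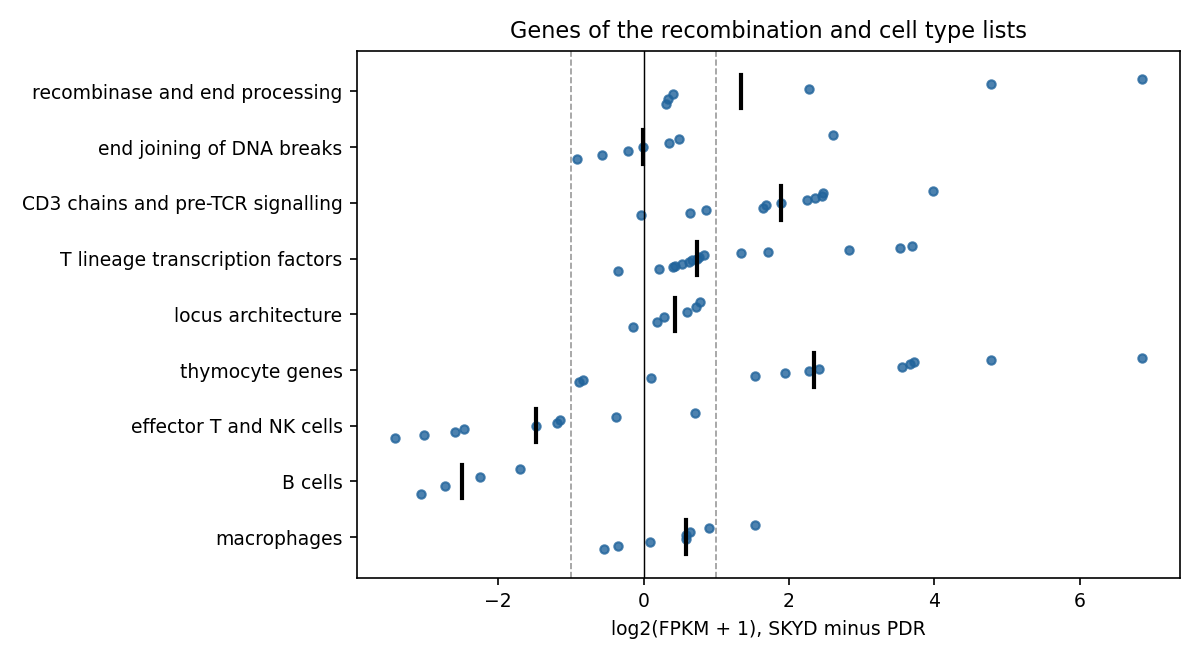
Difference in log2(FPKM + 1), SKYD minus PDR, for each gene whose FPKM averaged 1 or more (points) in lists of genes for recombination, T cells and other cell types, with the median of each list as a bar and 2-fold marked by dashed lines. Thymocyte genes have a median of 2.34 and effector T and NK genes of -1.48.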

How the data were processed

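RNA of sorted aortic macrophages was sequenced in 1 library of PDR and 1 of SKYD. The authors aligned the reads with TopHat 2.0.9, counted them per gene with HTSeq 0.6.1 and deposited FPKM for 54532 genes. The submitters' processing notes name mm9, but 98.3% of 54409 shared genes have the same position in GENCODE M21 of GRCm38, which was used here. Whether the counting used strand is not given in the sources used here. Reads were recovered by dividing FPKM times length by the value of 1 read, which was found from the lowest values of each library, and 100% of values above 0 were whole within 0.05 reads. The size behind FPKM was 23487992 in PDR and 24993633 in SKYD. RPM use reads on genes. Differences are log2(FPKM + 1), SKYD minus PDR, for genes whose FPKM averaged 1 or more, at a 2-fold threshold. No p-value was computed, because each group has 1 library. A ratio to another gene group is an odds ratio with its exact conditional interval.

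The segments and the gene lists were chosen with earlier results of these data known. All 51 segments are named. The rule gave values to the 10 with the most reads, those with more PDR reads, the first and last of the array and those at 0, and the others, with 1 to 4 reads, were listed to account for every member. The rule also asked for the 3 with the highest share of PDR reads among segments with 10 or more reads, but only Traj33, Traj59 and Traj19 had that many, the last pair with 0 PDR reads. Of the other genes, those of the locus and up to 4 of each list with the most reads were eligible, and those outside this rule, such as Rag1, Ptcra and Ccr7, were chosen after their values were seen. Some genes of the lists are not reported here. Alternatives were other pseudocounts (0.1 and 0.01), other minimums, TPM, centring, a 4-fold threshold, other denominators, other divisions of the array, and sets without Traj33. The recovery of reads and the 2-fold calls were tested on simulated data, where the changed genes had far more reads than any Traj segment. The intervals, the shares along the array and the motif search were not simulated. Tables were handled with pandas 2.3.3 and numpy 2.4.6 in Python 3.11.15, intervals came from scipy 1.17.1, and plots from matplotlib 3.10.9.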

Additional observations from a re-analysis of the deposited data

Results flagged for a closer look

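The 9 segments annotated as joining pseudogenes were no members and had 0 reads in PDR and 30 in SKYD, above the 3 reads that a count of 0 allows. With PDR set to 3 reads, they were 9.08-fold higher in SKYD (lower 95% limit of the ratio 6.94). By segment, Traj8 had 13 SKYD reads, Traj61 had 9 and Traj60 had 4. Of the others, Traj54 had 3 and Traj36 had 1, and Traj55, Traj51, Traj14 and Traj1 had 0. Per kb of segment, the pseudogenes had 66.8 SKYD reads (95% exact Poisson interval 45.1 to 95.4), and the 51 joining segments had 33.0 (26.9 to 40.0). The pseudogenes are 29 to 72 bases long and a read is longer, so dividing by length can raise the value of the shorter ones. Poisson intervals also leave out the uneven spread of reads over segments. Whether the pseudogenes differ from the joining segments was not tested. Without Traj8, a choice made after seeing the values, the pseudogenes had 41.3 per kb (24.0 to 66.1), an interval that overlaps that of the joining segments. Of the 9 pseudogenes, 1 holds the joining motif in frame, Traj54, and 5 hold a stop codon in frame. The pseudogenes with the most reads are shown as in GENCODE M21 of GRCm38.
Traj61 (chr14:54155005-54155076): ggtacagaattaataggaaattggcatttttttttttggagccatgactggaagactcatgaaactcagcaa
Traj8 (chr14:54209918-54209954): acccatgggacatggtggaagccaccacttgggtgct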

How the results depend on the processing

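In all the settings run, 0 segments were more than 2-fold higher in PDR. No segment had more than 3 PDR reads, which left little room for such a call in any setting. Those more than 2-fold higher in SKYD numbered 12 of 13 tested, 17 of 51 without a filter on FPKM and 17 of 19 after rescaling to TPM. Without a filter, they include Traj58, Traj43, Traj28, Traj27 and Traj11, with 2 SKYD reads and 0 PDR reads each, where no difference was detectable. None of these counts is read against a share of all genes. The number higher in SKYD was 5 of the same 13 tested with a 4-fold threshold. It was 3 with a minimum of 10 reads and 1 with a mean FPKM of at least 5, where 3 and 1 segments passed these minimums. The median difference of 1.91 was 4.79 with a pseudocount of 0.1, 8.06 with 0.01, 0.46 without a filter and 4.25 in RPM over segments with 10 or more reads. A smaller pseudocount raises the difference of segments with 0 PDR reads by construction. The summed reads had a log2 difference of 3.55, which was 2.04 over reads on Trac and 0.63 over all T cell receptor reads (the cause was not tested), and 3.97 without Traj33. Adding the pseudogenes, chosen after seeing the data, gave 3.92. The 5′ share of SKYD reads was 23.3% when only the first 17 segments were taken. Segments with a read numbered 27 in SKYD and 4 in PDR. With at least 4 reads they numbered 11 and 0, and 6.5 would be expected in SKYD if its reads were reduced to the 8 of PDR. No paired analysis was possible because each group has 1 library. The depth of 8 PDR reads limits every statement on single segments.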
